A study of Homo sapiens with 8 samples.

Results

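AXIN2, SP5, DKK1, NKD1, RNF43, ZNRF3 and APCDD1 are 7 genes of the Wnt pathway, and their ChIP-seq peaks were taken from the 6 deposited peak lists of dnTCF1E by the name of the gene with the nearest transcription start site (TSS). This gave 31 peaks of the 23433 in all lists, and the 7 genes are among 10699 genes named at a peak in any list. A gene with no row in a list had no listed peak there, which means no peak above the lower limit of the list and does not show an absence of binding.

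The lists came from DLD-1, a human colon cancer cell line with high endogenous Wnt signalling, in clonal lines in which doxycycline (1 µg/mL) induces dnTCF1E, a FLAG-tagged TCF1E that lacks the β-catenin binding domain. One line carries the wild-type protein (dnTCF1EWT) and the other a protein with substitutions in the C-clamp, its auxiliary DNA binding domain, that remove C-clamp DNA binding (dnTCF1Emut). FLAG ChIP-seq was performed without doxycycline (0 h) and after 2 and 9 h. The duplicates of each condition were pooled by the authors before peaks were called, so that each condition is 1 list with no replicate. Differences between lists are therefore described and not tested, and a difference of protein cannot be told apart from a difference of cell line or library.

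In Wnt signalling, stabilised β-catenin enters the nucleus and joins LEF/TCF factors on Wnt response elements (WREs), and genes next to these elements are transcribed. Several of the targets encode proteins that dampen the same pathway and so form negative feedback loops. AXIN2 is a scaffold of the complex that degrades β-catenin, DKK1 blocks the LRP co-receptors, APCDD1 is a membrane antagonist of Wnt, NKD1 binds Dishevelled, and RNF43 and ZNRF3 are ubiquitin ligases that remove Frizzled receptors from the membrane. SP5 is a zinc finger transcription factor of the SP family and a Wnt target. The HMG box of TCF1E binds the WRE and the C-clamp binds GC-rich Helper sites.

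The deposited tables give for each peak a MACS score, which rises as the P-value of the peak falls on a log scale, and count the matches to 3 motifs in its sequence. The WRE is CTTTG followed by 2 bases that are A or T and 1 that is C or G, the short Helper site is an A or G followed by CCG, and the Helper site is an A or G followed by CCGCC, so that every Helper site is also a short Helper site. The dnTCF1EWT lists held 1907, 5585 and 12996 peaks at 0, 2 and 9 h and the dnTCF1Emut lists 708, 1883 and 354 peaks. Their lowest scores lay between 50.01 and 50.21. The scores are not scaled for sequencing depth, which is unknown from the lists.

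The strongest peak of the 7 genes lay at the SP5 promoter, and the sequence is shown because 3 lists held a peak there. The 250 bases before the SP5 TSS follow, 5′ to 3′ on the plus strand, from RefSeq on GRCh38.p14 (chr2:170715087-170715336), with matches to the WRE and the short Helper site on either strand in capitals. The DKK1 promoter (chr10:52314031-52314280, plus strand) is shown for contrast, since no peak was listed within 39 kb of the DKK1 TSS.

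SP5: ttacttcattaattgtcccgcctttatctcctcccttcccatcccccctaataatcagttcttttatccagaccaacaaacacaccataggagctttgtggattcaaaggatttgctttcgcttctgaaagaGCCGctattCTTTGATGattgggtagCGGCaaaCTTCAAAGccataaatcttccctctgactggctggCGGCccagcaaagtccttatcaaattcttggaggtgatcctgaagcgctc
DKK1: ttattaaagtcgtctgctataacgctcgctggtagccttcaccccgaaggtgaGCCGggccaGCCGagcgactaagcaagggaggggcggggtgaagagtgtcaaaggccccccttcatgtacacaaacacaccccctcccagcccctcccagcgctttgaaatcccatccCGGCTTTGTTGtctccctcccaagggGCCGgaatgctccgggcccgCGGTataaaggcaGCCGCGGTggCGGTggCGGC

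The SP5 window held 2 WRE matches, CTTTGATG starting 109 bases before the TSS and, on the other strand, CTTCAAAG starting 85 bases before it. It held 3 short Helper matches, 1 of them a Helper match. A short Helper match lay between the WRE matches, starting 92 bases before the TSS. Of 35116 RefSeq promoter windows of this length, 5.56% held a WRE, 74.2% a short Helper site and 35.9% a Helper site, and 0.271% held 2 or more WREs. The DKK1 window held 1 WRE match, CTTTGTTG, with 9 short Helper matches, 2 of them Helper matches. RefSeq windows were at hand for 4 of the 7 genes. The APCDD1 window held 12 short Helper matches, 5 of them Helper matches, and no WRE match, and the 2 RNF43 windows held no match to any of the motifs. A motif match is a description of the letters and was not tested as a binding site.

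**Figure D1:**
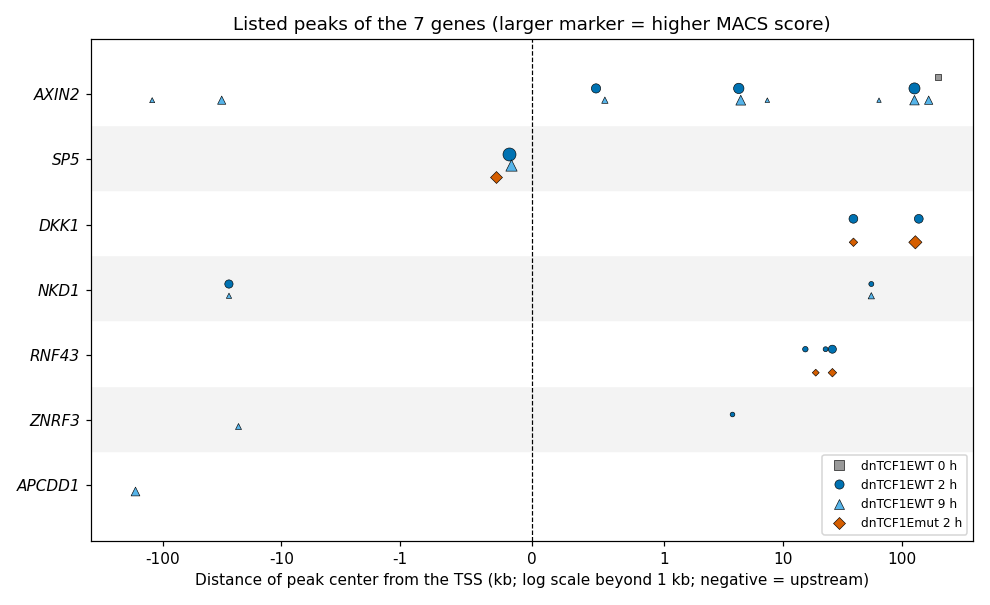
Distance of each listed peak from the TSS of its gene, in kb, with a log scale beyond 1 kb and negative values upstream. Each marker is 1 peak, its color and shape give the list and its size the MACS score. SP5 peaks lie within 0.3 kb of the TSS, DKK1 peaks start at 39 kb, and only the dnTCF1EWT lists hold peaks of AXIN2, NKD1, ZNRF3 and APCDD1.

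At 2 h, dnTCF1EWT had 12 peaks at 6 of the 7 genes, and APCDD1 had none. Of all genes named in any list, 40.1% had a peak in this list. At 9 h, dnTCF1EWT had 13 peaks at 5 of the 7 genes, with none at DKK1 and RNF43, beside 76.5% of all genes. dnTCF1Emut had 5 peaks at 2 h, at SP5, DKK1 and RNF43, beside 13.9% of all genes. No peak of the 7 genes was listed for dnTCF1Emut at 0 or 9 h, beside 5.57% and 3.08% of all genes, so that few peaks of any 7 genes could be listed there. Untreated dnTCF1EWT cells had 1 peak, 199 kb downstream of the AXIN2 TSS in an Alu repeat, with a score of 61.34, beside 15.8% of all genes with a peak. None of the 30 peaks of the 7 genes in the induced lists overlapped a peak of untreated cells, beside 1.67% of all dnTCF1EWT 2 h peaks, 1.31% at 9 h and 17.4% of the dnTCF1Emut 2 h list, so that a lack of overlap was common to most peaks.

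The 31 peaks merged into 22 regions. One region, the SP5 promoter, was in 3 lists, 7 other regions were in a pair of lists, and 14 were in a single list. Of the 14, 7 were listed for dnTCF1EWT at 9 h, 4 for dnTCF1EWT at 2 h, 2 for dnTCF1Emut at 2 h and 1 in untreated cells. A lack of overlap was common in the whole lists. Of all dnTCF1EWT 2 h peaks, 14.9% overlapped a dnTCF1EWT 9 h peak and 9.44% a dnTCF1Emut 2 h peak. A dnTCF1EWT 2 h peak was overlapped by 6.47% of all dnTCF1EWT 9 h peaks and 27.9% of all dnTCF1Emut 2 h peaks.

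At the SP5 promoter, the score was 1212.83 for dnTCF1EWT at 2 h, 505.79 for dnTCF1EWT at 9 h and 152.92 for dnTCF1Emut at 2 h. These peaks ranked 12, 28 and 325 in their lists. Among the 333 dnTCF1EWT 2 h peaks within 2 kb of a TSS the SP5 peak had the highest score, and it ranked 4 of 669 such peaks at 9 h and 7 of 50 for dnTCF1Emut at 2 h. The SP5 promoter was thus high among promoter peaks in each of the 3 lists, also where its score was lowest.

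The wild-type score was 7.93 times the mutant score at 2 h. This ratio was higher than that of 97.7% of the 527 dnTCF1EWT 2 h peaks that overlap a dnTCF1Emut 2 h peak. Dividing the scores of each list by the median of its top 300 peaks gave a ratio of 4.53. This rough scaling cannot separate depth from other differences in score between whole lists. From 2 to 9 h the wild-type score fell, by a ratio of 2.40 as listed and of 1.21 after the same scaling.

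The 3 SP5 peaks had different edges. On hg19 the dnTCF1EWT 2 h peak (chr2:171571309-171572054, 746 bp) ran from 548 bp upstream to 197 bp downstream of the TSS. At 9 h the dnTCF1EWT peak (chr2:171571428-171571962) ran from 429 bp upstream to 105 bp downstream. The dnTCF1Emut 2 h peak (chr2:171571337-171571828, 492 bp) ran from 520 to 29 bp upstream and did not reach the TSS. Its center lay 99 bp further upstream than that of the wild-type 2 h peak. The peak coordinates are on hg19 and the printed promoter on GRCh38, and the TSS of the annotations was not aligned between them.

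All 3 SP5 peaks held 3 WREs. Since the dnTCF1EWT 2 h peak contains the other two, these 3 WREs lay in the 401 bp that the peaks share, from 429 to 29 bp upstream of the TSS. The Helper matches differed with the edges. The wild-type peak at 2 h held 18 short Helper and 5 Helper sites, the wild-type peak at 9 h held 9 and 3, and the mutant peak held 8 and 2. Of the matches in the wild-type 2 h peak, 10 short Helper and 3 Helper sites therefore lay outside the mutant peak or across its edges. The GC content was 56.6% in the wild-type 2 h peak and 47.6% in the mutant peak. The lists as a whole differed as well, with median GC contents of 48.9% for dnTCF1EWT and 37.1% for dnTCF1Emut at 2 h. In untreated cells the medians were 49.7% and 6.32%.

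AXIN2 had the most peaks of the 7 genes, and none of them for dnTCF1Emut. At 2 h, dnTCF1EWT had 3 peaks, and 5.49% of the 4295 genes with a peak in this list had as many. The first lay in intergenic sequence 127 kb downstream of the TSS (chr17:63429891-63430694) with a score of 449.55 and rank 111. The second lay in intron 2, 4.2 kb downstream (chr17:63553192-63553821), with a score of 326.54, and the third in a CpG island in intron 1, 483 bp downstream (chr17:63557090-63557425), with a score of 205.99. All were among the top 400 peaks of the list, with the third at rank 388.

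These 3 regions were listed again at 9 h, with scores of 230.89 at 127 kb, 264.36 in intron 2 and 79.14 in intron 1. The order of the regions changed: the intergenic peak was the highest at 2 h and the intron 2 peak at 9 h. As listed, the 2 h scores were 1.95, 1.24 and 2.60 times the 9 h scores. After scaling by the top 300 peaks the ratios were 0.984, 0.624 and 1.32, so that for the intergenic and the intron 2 region the direction of the change depends on the scaling.

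The 3 AXIN2 regions differed in their motifs. The intergenic peak held 5 WREs and 1 short Helper site at 2 h, and 0.143% of all dnTCF1EWT 2 h peaks held as many WREs. The intron 2 peak held 1 WRE and 1 short Helper site. The intron 1 peak held 1 WRE, 14 short Helper sites and 3 Helper sites, with a GC content of 70.5%. At 9 h the intron 1 peak was shorter, 195 bp against 336 bp, and held 7 short Helper sites, 1 Helper site and no WRE. The intron 2 peak was longer at 9 h, 718 bp against 630 bp, and held 2 WREs and 1 short Helper site.

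At 9 h, dnTCF1EWT had 5 further AXIN2 peaks, for a total of 8. Of the 8182 genes with a peak in this list, 0.306% had as many. Those at 168 kb downstream (chr17:63389763-63390102) and 31.8 kb upstream (chr17:63589385-63589659) had scores of 145.88 and 140.38 and 1 WRE each. The other three, with scores from 51.10 to 57.84, lay in repeats (an Alu element in 2 cases and a simple repeat in 1) and held no WRE. Their scores were near the lower limit of the list. The peak with the score of 57.84, 122 kb upstream, lay in an intron of another transcript (NM_001037325). It is counted for AXIN2 only as the gene with the nearest TSS.

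No AXIN2 peak was listed for dnTCF1Emut at either time. Of the 278 dnTCF1EWT 2 h peaks with scores in the range of the 3 AXIN2 peaks, 205.99 to 449.55, 47.1% overlapped a dnTCF1Emut 2 h peak, so that the lack of a mutant peak was common among wild-type peaks of this strength. Of all dnTCF1EWT 2 h peaks, 9.44% overlapped one.

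DKK1, the secreted antagonist, had only distal peaks, downstream of the gene, and none at 9 h. dnTCF1EWT had a peak at 39.0 kb (chr10:54112872-54113272) with a score of 173.06 and a peak at 139 kb (chr10:54212369-54212831) with a score of 173.52 at 2 h. dnTCF1Emut had a peak at the first region with a score of 71.84, so that the wild-type score was 2.41 times the mutant score as listed and 1.38 times after scaling.

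The second dnTCF1Emut peak at DKK1 lay 130 kb downstream (chr10:54203295-54204127, 833 bp) and had the highest score of the 7 genes in the mutant list, 214.12 at rank 159, above that of SP5. No peak of the other 5 lists overlapped it. The edges of this peak and of the wild-type peak at 139 kb were 8.24 kb apart. Its GC content was 34.6%, beside a median of 37.1% in the mutant list, and it held 1 WRE and no Helper site of either kind. The 4 DKK1 peaks of both proteins held 1 or 2 WREs each and no short Helper site.

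APCDD1, the membrane antagonist, had a single peak, for dnTCF1EWT at 9 h, 170 kb upstream of the TSS (chr18:10284562-10284947). Its score of 173.97 ranked 184 of 12996 and it held 1 WRE and 2 short Helper sites. No list held a peak of APCDD1 at 2 h.

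NKD1, the Dishevelled-binding antagonist, had the same 2 regions at 2 and 9 h of dnTCF1EWT and none for dnTCF1Emut. The region 27.6 kb upstream (chr16:50554415-50554803 at 2 h) had scores of 143.45 at 2 h and 60.49 at 9 h. This region held 2 WREs at both times, with 4 short Helper sites at 2 h and 2 at 9 h. The region in intron 3, 55.2 kb downstream (chr16:50637386-50637571 at 2 h), had scores of 57.08 and 77.77, and held 3 short Helper sites and no WRE at both times. The listed score was thus lower at 9 h at the upstream region and higher in intron 3. A tie of these changes to the WREs was not tested. The intron 3 region was the only one of the 6 regions held at both times with a higher 9 h score as listed. After scaling, the 2 h scores of the AXIN2 intergenic and intron 2 regions were lower as well, as given above.

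The peaks of RNF43, the first of the Frizzled ubiquitin ligases, all lay in intron 2, from 15.4 to 26.0 kb downstream of the TSS, and none was listed at 9 h. The strongest, 26.0 kb downstream (chr17:56468765-56469167), had a score of 133.84 for dnTCF1EWT and 72.31 for dnTCF1Emut at 2 h, a ratio of 1.85 as listed and 1.06 after scaling. It held 2 short Helper sites and no WRE. dnTCF1EWT had 2 further peaks with scores of 63.53 and 55.86, and dnTCF1Emut had 1 at 18.8 kb with a score of 55.97. None of these overlapped a peak of another list.

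ZNRF3, the other ligase, had only peaks with scores of 72 or less. A dnTCF1EWT 2 h peak in intron 1, 3.7 kb downstream of a ZNRF3 TSS (chr22:29317021-29317189), had a score of 53.60 at rank 4226 of 5585. A 9 h peak in an Alu repeat 23 kb upstream of another ZNRF3 TSS (chr22:29256635-29256871) had a score of 72 at rank 1947 of 12996. Neither held a WRE or overlapped a peak of another list.

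**Figure D2:**
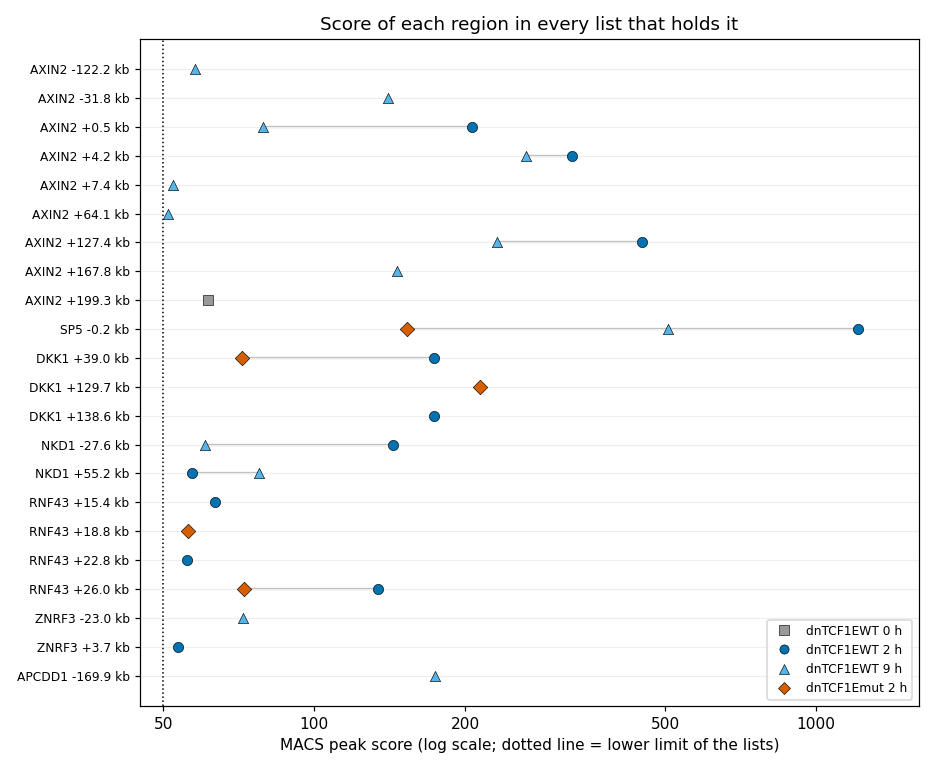
MACS score of each of the 22 regions in every list that holds it, on a log scale, with lines joining the lists of a region and the lower limit of the lists dotted. Row names give the gene and the distance of the strongest peak from the TSS. The SP5 promoter spans 152.92 to 1212.83, and the 3 AXIN2 regions held at both times have no mutant marker.

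The time courses of the 7 genes can be set beside all peaks. Of the 12 dnTCF1EWT 2 h peaks, 6 overlapped a 9 h peak, beside 14.9% of all dnTCF1EWT 2 h peaks. Of the 8 with a score of 100 or more, 5 overlapped one, beside 48.7% of all peaks with such scores. In the other direction, 6 of the 13 peaks at 9 h overlapped a 2 h peak, beside 6.47% of all. Of the 6 peaks at 9 h with a score of 100 or more, 3 did, beside 54.3% of all with such scores. At the 6 shared peaks the score was higher at 2 h in 5, beside 66.1% of the shared peaks of all genes, and at least 2 times as high in 3, beside 31.2% of the 833 shared peaks of all genes, and the median log2 ratio was 1.10, beside 0.33. After scaling by the top 300 peaks the median log2 ratio was 0.12, beside −0.66 for all shared peaks. The scaled ratio of 2 h to 9 h was 2 or more in none of the 6 and below 0.5 in 1, the NKD1 intron 3 region, at 0.371. The shares of all 833 past these scaled limits are not given here, but 14.9% of the 833 had a lower ratio than this region.

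Between the proteins, 3 of the 12 dnTCF1EWT 2 h peaks overlapped a dnTCF1Emut 2 h peak, beside 9.44% of all dnTCF1EWT 2 h peaks. All 3 were among the 8 with a score of 100 or more, beside 38.7% of all peaks with such scores, so that the share of overlap at the 7 genes was close to that of peaks of like score. Of the 5 mutant peaks, 3 overlapped a wild-type peak, beside 27.9% of the mutant list. Of the 2 mutant peaks with a score of 100 or more, 1 did, beside 44.4% of all with such scores. The wild-type score was the higher at each of the 3 shared peaks, beside 63.6% of all 527, and at least 2 times as high at 2 of them, beside 31.7% of all 527. The median log2 ratio was 1.27, beside 0.45 for all shared peaks, and after scaling it was 0.46, beside −0.36. Of the 3, the SP5 promoter alone had a ratio above 2 after scaling. The share of all 527 with such a scaled ratio is not given here. The SP5 ratio was higher than that of 97.7% of the 527, a standing that the scaling does not change.

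The standing of the 7 genes in a list depended on how many of its peaks were compared. Of the 12 peaks at 2 h, 8 had a score of 100 or more, beside 16.6% of all, and their median score was at the 90.2 percentile of the list. At 9 h, 6 of 13 had such a score, beside 4.35% of all, with a median also at the 90.2 percentile. In the dnTCF1Emut 2 h list, 2 of 5 had such a score, beside 35.8% of all, with a median at the 41.4 percentile. The order of the lists turned when only their top 1000 peaks were taken. This limit itself drops the weaker peaks of the 7 genes and leaves 8 for dnTCF1EWT at 2 h, 6 at 9 h and 2 for dnTCF1Emut. The peaks left had medians at the 56.9, 85.5 and 75.8 percentiles, the last from only 2 peaks.

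**Figure D3:**
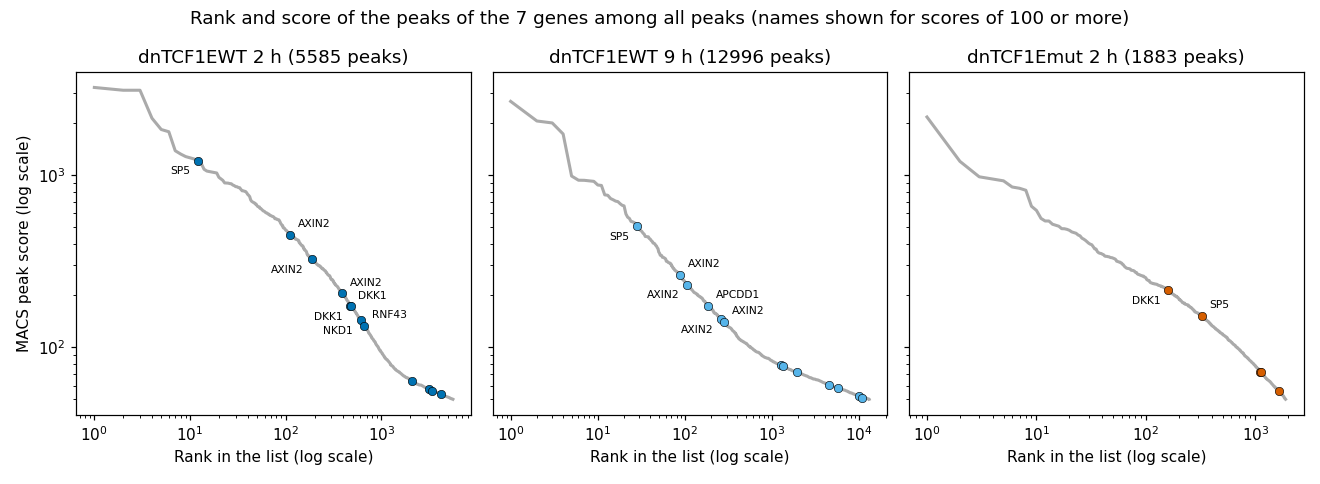
MACS score against rank, both on log scales, for all peaks of 3 lists (gray line) with the peaks of the 7 genes as points. SP5 stands at rank 12 of 5585, 28 of 12996 and 325 of 1883, and in the mutant list a DKK1 peak stands above it at rank 159.

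The peaks were chiefly intronic or intergenic. At 2 h, 9 of the 12 dnTCF1EWT peaks lay within 50 kb of the TSS, beside 57.3% of all, with a median distance of 24.4 kb beside 38.1 kb. At 9 h, 7 of 13 did, beside 61.9%, with a median of 31.8 kb beside 31.9 kb. For dnTCF1Emut at 2 h, 4 of 5 did, beside 45.5%, with a median of 26.0 kb beside 60.0 kb. SP5 was the only one of the 7 genes with a peak annotated as promoter. The tables give this label for NR_027433, a noncoding transcript of LINC01124 whose TSS lies 0.78 kb upstream of that of SP5, although the SP5 TSS is the nearer to the peak.

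None of the 12 dnTCF1EWT 2 h peaks had its center in an annotated repeat, beside 73.3% of the whole list and 24.2% of the peaks with a score of 100 or more. At 9 h, 4 of 13 did, beside 87.4% of the whole list and 34.5% of the peaks with a score of 100 or more. All 4 had scores of 72 or less, and the 6 peaks with a score of 100 or more had their centers outside repeats.

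WREs were found in 8 of the 12 dnTCF1EWT 2 h peaks, beside 16.3% of the list. Among peaks with a score of 100 or more this was 7 of 8, beside 51.8% of all with such scores, and the one without a WRE was at RNF43. At 9 h, 7 of 13 peaks had a WRE, beside 6.56%, and in the dnTCF1Emut 2 h list 3 of 5, beside 36%. All 6 peaks with a score of 100 or more at 9 h had a WRE, beside 43.5% of such peaks, and both in the mutant list, beside 45.5%.

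Short Helper sites were in 9 of the 12 peaks, beside 54.1% of the dnTCF1EWT 2 h list, in 11 of 13 at 9 h, beside 55.4%, and in 3 of 5 of dnTCF1Emut, beside 38.9%. Helper sites were in 2 of 12 peaks, beside 7.23%, in 2 of 13, beside 4.83%, and in 1 of 5, beside 4.35%. Against peaks with a score of 100 or more, these shares were close to the background in the dnTCF1EWT 2 h list, where 6 of 8 held a short Helper site, beside 76.2%, and 2 of 8 a Helper site, beside 19.7%. At 9 h it was 6 of 6 for the short Helper site, beside 72.6%, and 1 of 6 for the Helper site, beside 22.1%, and for dnTCF1Emut 1 of 2 for each, beside 49.3% and 6.37%. The peaks with a Helper site were those at the SP5 promoter and in AXIN2 intron 1, the only ones within 2 kb of a TSS. Longer peaks hold more matches, and the median length was 401 bp for the 12 peaks beside 187 bp for the list at 2 h, 237 bp beside 171 bp at 9 h, and 353 bp beside 452 bp for dnTCF1Emut.

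**Figure D4:**
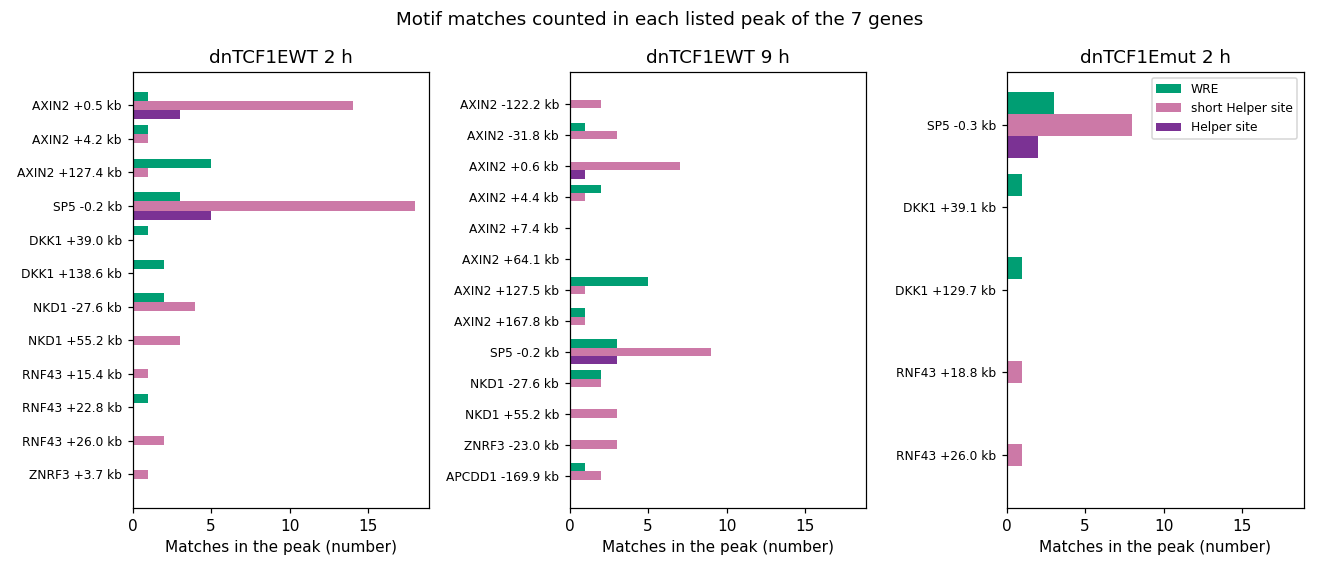
Number of matches to the WRE, the short Helper site and the Helper site in each peak of the 7 genes, by list. The SP5 promoter holds 3 WREs in each list, with 18, 9 and 8 short Helper sites, and Helper sites appear only at SP5 and in AXIN2 intron 1.

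A list of 47 gene symbols of other Wnt antagonists, feedback genes and R-spondin receptors and ligands gives a setting for the 7 genes. The symbols AMER1 and FAM123B, which stand for the same gene, are both among the 47. Of the 29 named in any list, 19 had a peak for dnTCF1EWT at 2 h, 17 at 9 h and 6 for dnTCF1Emut at 2 h, while 6 had one in untreated dnTCF1EWT cells. These are 65.5%, 58.6%, 20.7% and 20.7% of the 29, beside the 40.1%, 76.5%, 13.9% and 15.8% of all genes given above. These 19 genes had 25 peaks at 2 h, 9 of them with a score of 100 or more. The highest were at LGR5, an R-spondin receptor, with a score of 809.13 at 0.93 kb from the TSS, at DACT1, a Dishevelled-binding protein, with 591.95 at 86.6 kb, and at TLE1, a Groucho co-repressor, with 513.67 at 686 kb. The last is tied to TLE1 only as the gene with the nearest TSS. Like AXIN2, LGR5 had no peak for dnTCF1Emut at the same place, whereas the DACT1 and TLE1 peaks overlapped mutant 2 h peaks with scores of 477.39 and 313.63. SP5 was above all genes of these 47 symbols in the dnTCF1EWT 2 h list.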

How the data were processed

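FLAG ChIP-seq peaks of dnTCF1EWT and dnTCF1Emut at 0, 2 and 9 h were analysed from 6 lists. Per the submitters' processing notes, CASAVA 1.8.2, Bowtie2 2.0.0, MACS 1.3 and HOMER 3.16 were used on hg19. The labels call most libraries first replicates, whereas the study's methods describe pooled duplicates. The deposited score is that of MACS, the deposited GC content is a fraction of the peak sequence and is given in percent, and the deposited motif numbers and distances to the TSS are HOMER's, the distance from the peak center. All 23433 rows matched the deposited peak positions and scores. The inputs and reads were not used here, and the depth is unknown.

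The 7 genes and the lists were chosen with earlier results of these data known. Peaks overlapping by 1 base or more were called shared, with the highest-scoring overlapping peak taken, and a ratio of 2 or more was called a difference. No test was made, since each condition has 1 list. Named in full were the highest-scoring peak of each gene in each list and every peak with a score of 100 or more. Every region in 2 or more lists was named as well, and of the 47 other gene symbols the 3 highest at 2 h. The remaining peaks are given by range or, where few, singly. Overlap was tested on simulated peaks. Promoter sequences are from RefSeq (GRCh38.p14), searched on both strands. Alternatives changed the score limit, the number of top peaks, the distance, the overlap, the scaling and the background. The software was matplotlib 3.10.9, SciPy 1.17.1, pandas 2.3.3 and NumPy 2.4.6 under Python 3.11.15.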

Additional observations from a re-analysis of the deposited data

How the results depend on the processing

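Of 84 values under an alternative, 45 were classed as the same, 37 as moved and 2 as reversed. The first class is broad: for dnTCF1EWT at 2 h it holds a fall from 12 peaks to 8 with scores above 67. Untreated dnTCF1EWT cells had 0 peaks at 0 genes with scores above 67, with scores of 100 or more, or within 50 kb of a TSS. For dnTCF1EWT at 9 h, scores of 100 or more, or the top 1000 peaks, left 6 peaks at 3 of the 7 genes, and 50 kb left 7 peaks. For dnTCF1Emut at 2 h both limits left 2 peaks. The median log2 ratios also moved: with scores divided by the median of the top 300 peaks they became 0.12 for 2 h against 9 h and 0.46 for wild type against mutant. With this scaling the log2 ratios of 2 h to 9 h reversed at the AXIN2 intergenic region (-0.024) and in AXIN2 intron 2 (-0.68), since the top 300 peaks had a median score of 387 at 2 h and 196 at 9 h. Among the top 1000 peaks alone the median percentiles became 56.9, 85.5 and 75.8 for dnTCF1EWT at 2 and 9 h and dnTCF1Emut at 2 h, and against peaks that overlap no untreated peak the last was 42.6.

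With scores above 67 the median distances became 26.8 kb for dnTCF1EWT and 32.5 kb for dnTCF1Emut at 2 h, 87.5% of the dnTCF1EWT 2 h peaks held a WRE and 100% of those at 9 h a short Helper site. The background with a WRE was 19.8% in the score range of the 12 peaks at 2 h. With scores of 100 or more, an alternative chosen after seeing the data, it was 51.8%, 43.5% and 45.5%. The share of genes with a peak, over RefSeq protein-coding genes (also chosen after seeing the data), was 15.9%, 30.8% and 5.43%. No paired analysis was possible because each condition is 1 list. Motifs in a fixed 400 bp window were not run, since no hg19 genome was at hand. Counts of 5 to 13 peaks allow only coarse shares, and peaks under the lower limit of a list cannot be seen.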

Other observations

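Within 250 kb of the TSSs of the 7 genes, peaks named for other genes numbered 9 in the dnTCF1EWT 2 h list, 19 at 9 h and 1 in the dnTCF1Emut 2 h list, with 3 in untreated dnTCF1EWT and 1 in untreated dnTCF1Emut cells. They fall outside the 7 genes by the nearest TSS and were picked after their values were seen. The one of dnTCF1Emut at 2 h lay 222 kb upstream of the AXIN2 TSS, in an intron of CEP112 (chr17:63779626-63780407), with a score of 337.30 at rank 43. The dnTCF1EWT 2 h peak at the same place had a score of 418.04, and no peak was listed there at 9 h. It held 1 WRE and no Helper site of either kind in both lists.

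An intronic TEX14 peak 241 kb upstream of the RNF43 TSS had scores of 284.72 at 2 h and 66.56 at 9 h of dnTCF1EWT. It held 4 short Helper sites and no WRE at 2 h. A peak named for CCDC117, 157 kb upstream of the more distant of the ZNRF3 TSSs, had scores of 163.63 and 56.35, with 1 WRE at 2 h and none in the shorter peak at 9 h. Both were stronger at 2 h than any peak named for the neighbouring RNF43 or ZNRF3.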
